A study of Homo sapiens with 8 samples.

Results

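A group of 6 genes of bone morphogenetic protein (BMP) signalling was examined in HCT116 cells, an established human colorectal carcinoma line, with and without STAU1. They are the ligand gene BMP4, the inhibitory SMAD genes SMAD6 and SMAD7, and the target genes ID1, ID2 and ID3, and were taken by symbol from an expression table of 17788 genes, which lists all 6. The product of STAU1, Staufen1, recognises double-stranded stretches of RNA. RNA was sequenced in 4 groups of 2 libraries each, namely STAU1-KO input, WT input, STAU1-KO spindle and WT spindle, where input is RNA of whole mitotic cells and spindle is RNA of a pelleted spindle preparation. The STAU1-KO cells were made by CRISPR and all carry 1 clone code, so genotype and clone cannot be told apart. All cells spent 16 h in RO-3306, which blocks CDK1, and then 15 min in 100 µM taxol before mitotic cells were shaken off, so no group shows RNA of untreated or interphase cells. Total RNA was depleted of ribosomal RNA and made into stranded libraries. The series calls the libraries biological replicates. The labels do not say whether they came from separate cultures, so the spread between them may be partly technical.

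BMP ligands bind paired type I and type II serine/threonine kinase receptors, which phosphorylate SMAD1, SMAD5 and SMAD9. These enter the nucleus with SMAD4 and switch on target genes, of which ID1, ID2 and ID3 are the best known. ID proteins are helix-loop-helix proteins without a DNA-binding region that pair with E proteins and keep them from DNA. SMAD6 and SMAD7 are made in response to the pathway and restrain it, SMAD7 also in TGF-beta signalling. In the gut, BMP signalling is known for its part in the differentiation of the epithelium.

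The 6 genes were chosen with their differences between STAU1-KO and WT cells known. Those differences are therefore given as values with no p, and where a count of limma calls over all genes includes one of the 6, that is a description only. The spindle-to-input comparisons within a genotype were not the contrast of the choice and are tested for ID1, ID3 and BMP4. They share libraries with it, so their p-values are not fully independent of how the genes were chosen. For ID2, SMAD6 and SMAD7 these comparisons are given with no p, for reasons stated below.

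Reads on listed genes numbered 5.21 M to 14.6 M per library. WT spindle replicate 2 stood apart, with 46.1% of reads on the 28S ribosomal RNA gene RNA28S5, against 13.6% in WT spindle replicate 1 and 10.8% to 11.0% in the STAU1-KO spindle libraries. STAU1 itself (ENSG00000124214) had an FPKM (reads scaled by library size, as the authors set it, and by transcript length) of 4.59 and 4.88 in STAU1-KO input, against 31.9 and 28.5 in WT input. In spindle it had an FPKM of 9.83 and 9.83 in STAU1-KO libraries, against 11.5 and 16.2 in WT libraries, so the targeted gene separated the genotypes less there. Its paralog STAU2 had an FPKM of 4.02 and 4.21 in STAU1-KO input, against 3.18 and 3.38 in WT input. Of 8 markers of colon epithelium, 6 are in the expression table (CDH1, EPCAM, KRT8, KRT18, KRT19 and CDX2, while VIL1 and CDX1 are absent), and their summed FPKM was 1073 to 1121 in STAU1-KO input, 1454 to 1507 in WT input, 642 to 650 in STAU1-KO spindle and 313 to 893 in WT spindle. Their part in the results below was not tested. Of 7 fibroblast markers only COL1A1 is in the table (FPKM of 0.753 to 6.69 over the libraries), and none of 6 immune or 5 endothelial markers is. In bulk RNA, fewer cells of a kind and less RNA per cell cannot be told apart.

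The promoters of ID1, ID2 and ID3 are shown as those of 1 family of direct BMP targets. All 3 genes were lower in STAU1-KO input, as were SMAD6 and SMAD7, whose promoters are not printed. Each window runs from 250 bases before to 50 bases after the RefSeq start in GRCh38.p14, on the gene's strand and 5′ to 3′. ID1 lies at chr20:31605039-31605338 on the plus strand, ID2 at chr2:8681806-8682105 on the plus strand and ID3 at chr1:23559452-23559751 on the minus strand. Capitals mark 3 motifs, each on either strand. They are the SMAD box with the letters GTCT, a GC-rich SMAD site with the letters GGAGCC, and the CCAAT box. None of the marked motifs overlaps another.
ID1: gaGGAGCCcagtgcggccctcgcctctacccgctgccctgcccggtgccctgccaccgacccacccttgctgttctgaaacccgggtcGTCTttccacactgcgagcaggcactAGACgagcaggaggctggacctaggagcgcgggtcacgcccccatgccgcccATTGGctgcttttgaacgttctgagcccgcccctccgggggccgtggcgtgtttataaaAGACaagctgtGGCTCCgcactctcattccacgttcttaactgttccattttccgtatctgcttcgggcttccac
ID2: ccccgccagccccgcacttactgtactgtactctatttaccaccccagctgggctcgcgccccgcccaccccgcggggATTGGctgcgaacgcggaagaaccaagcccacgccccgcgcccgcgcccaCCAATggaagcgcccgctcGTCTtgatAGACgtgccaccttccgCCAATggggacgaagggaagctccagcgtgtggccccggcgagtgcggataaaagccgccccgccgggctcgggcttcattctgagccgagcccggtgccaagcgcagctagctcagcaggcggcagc
ID3: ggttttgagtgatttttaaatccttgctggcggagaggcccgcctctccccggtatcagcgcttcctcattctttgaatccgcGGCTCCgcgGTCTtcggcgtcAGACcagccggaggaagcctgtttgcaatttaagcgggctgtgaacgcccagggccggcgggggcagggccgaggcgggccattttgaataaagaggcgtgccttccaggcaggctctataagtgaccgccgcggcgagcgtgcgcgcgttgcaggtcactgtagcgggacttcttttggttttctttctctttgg

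In these windows ID1 holds 3 SMAD boxes, at -162, -136 and -25 relative to the start, 2 GGAGCC sites at -248 and -14, and 1 CCAAT box at -84. ID2 holds 2 SMAD boxes, at -103 and -95, no GGAGCC site and 3 CCAAT boxes, at -172, -122 and -78. ID3 holds 2 SMAD boxes, at -158 and -146, 1 GGAGCC site at -167 and no CCAAT box. The GC-rich SMAD site GGCGCC was found in none of the 3. Among 35116 RefSeq promoter windows of the same length, 84.0% hold a SMAD box, with a median of 2 per window, 36.0% hold GGAGCC, 19.2% hold GGCGCC and 34.6% hold a CCAAT box, searched on both strands. The matches are descriptions of the letters, and the known BMP response element of ID1 lies farther upstream than this window.

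STAU1-KO input carried less RNA of the 3 ID genes than WT input, less of SMAD6 and SMAD7, and more of BMP4. ID2 differed most, at 27.0% of the WT mean, and ID1 and ID3 stood at 73.4% and 71.1%. SMAD6 stood at 60.0%, SMAD7 at 35.1% and BMP4 at 134%. In all 6 genes the 2 STAU1-KO input libraries lay outside the range of the 2 WT input libraries, 5 below it and 1 above. Such separation is common with 2 libraries a group. Of 17217 genes tested, 27.8% had both STAU1-KO input libraries below both WT input libraries and 26.4% had both above. By limma at an adjusted p under 0.05, 0.11% of genes were lower and 0.0813% were higher in STAU1-KO input. ID2 was the only 1 of the 6 called, and nothing is read from these counts, because the genes were chosen on this difference.

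**Figure D1:**
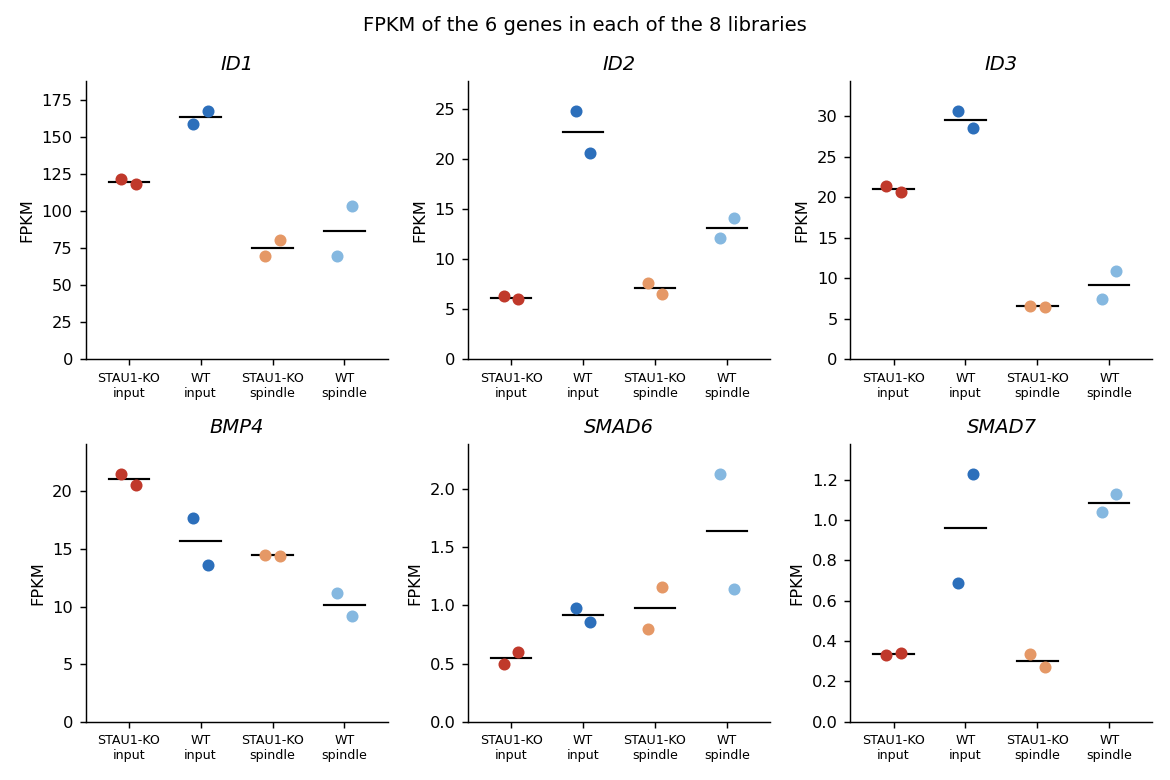
FPKM (linear axis) of the 6 genes in each library; points are libraries and horizontal lines are group means (n = 2). ID2 lies at 6.0 to 7.60 in the 4 STAU1-KO libraries and at 12.1 to 24.8 in the 4 WT libraries, while the ID1 values of STAU1-KO spindle and WT spindle overlap.

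BMP4 (ENSG00000125378, chromosome 14), which encodes the ligand, had an FPKM of 21.6 and 20.6 in STAU1-KO input, against 17.7 and 13.6 in WT input. Both STAU1-KO libraries were higher, although by a narrow gap to WT input replicate 1. The log2(FPKM + 1) difference, STAU1-KO minus WT, was 0.41 (SE 0.15), and was 0.59 without WT input replicate 1 and 0.24 without replicate 2. These values rest on 871 and 953 reads in STAU1-KO input and 473 and 416 reads in WT input. In spindle, BMP4 had an FPKM of 14.5 and 14.4 in STAU1-KO libraries, against 11.2 and 9.16 in WT libraries. Again both STAU1-KO libraries were higher, by 0.48 (SE 0.15) on the log2 scale, at 142% of the WT mean, or by 0.30 with library values rescaled to equal sums over coding genes. BMP4 was the 1 gene of the 6 that was higher in STAU1-KO cells in both preparations.

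SMAD7 (ENSG00000101665, chromosome 18), which binds activated type I receptors and recruits ubiquitin ligases to them, had an FPKM of 0.331 and 0.342 in STAU1-KO input, against 0.688 and 1.23 in WT input. In spindle it had an FPKM of 0.336 and 0.271 in STAU1-KO libraries, against 1.04 and 1.13 in WT libraries. The 4 STAU1-KO libraries were alike and below every WT library. The gene is thinly covered, with 8 to 19 reads per STAU1-KO library against 18 to 45 per WT library. On the log2(FPKM + 1) scale, which understates changes of low genes, STAU1-KO minus WT was -0.54 (SE 0.20) in input and -0.68 (SE 0.20) in spindle. With a pseudocount of 0.1 in place of 1 these were -1.23 and -1.56. The authors' deposited table gives a log2 fold change of -1.52 (SE 0.529) for STAU1-KO input against WT input. The input value was -0.74 without WT input replicate 1 and -0.34 without replicate 2. SMAD7 reached an FPKM of 1 in 3 libraries, all WT, and so passed the filter on low values only through the group in which it was high.

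SMAD6 (ENSG00000137834, chromosome 15), which acts mainly on the BMP branch, had an FPKM of 0.50 and 0.599 in STAU1-KO input, against 0.977 and 0.855 in WT input. The 2 groups did not overlap in input, and the log2 difference was -0.31 (SE 0.22). In spindle it had an FPKM of 0.798 and 1.16 in STAU1-KO libraries, against 2.13 and 1.14 in WT libraries, and here the groups overlapped. The spindle difference of -0.39 (SE 0.22) was -0.12 without WT spindle replicate 1 and -0.67 without replicate 2. With a pseudocount of 0.1 in place of 1, the differences were -0.65 in input and -0.64 in spindle. SMAD6 had 18 to 55 reads per library, the lowest and the highest both in WT spindle. It reached an FPKM of 1 in 3 libraries, all of them spindle. Of its group means only that of WT spindle, 1.64, reached 1. The lower STAU1-KO spindle value is therefore not independent of how the gene came to be listed. A non-coding gene inside an intron of SMAD6 on the same strand, AC013564.1, cannot be told apart from unspliced SMAD6 by strand.

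ID1 (ENSG00000125968, chromosome 20) was by far the most abundant of the 6 genes. Its FPKM was 121 and 118 in STAU1-KO input, against 159 and 168 in WT input, and the groups did not overlap. STAU1-KO minus WT was -0.44 (SE 0.21) on the log2 scale, from 1962 and 2196 reads in STAU1-KO input and 1699 and 2048 reads in WT input. In spindle its FPKM was 69.4 and 80.2 in STAU1-KO libraries, against 69.4 and 104 in WT libraries. The spindle groups overlapped, and the difference of -0.18 (SE 0.21) turned on the WT libraries, at -0.47 without WT spindle replicate 1 and 0.10 without replicate 2, the library rich in 28S RNA. It was -0.38 with equal coding sums.

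ID2 (ENSG00000115738, chromosome 2) showed the largest genotype difference of the 6 on the log2(FPKM + 1) scale in both preparations. As a share of the WT mean it was also the lowest in input, at 27.0%, but in spindle it stood at 53.9% against 28% for SMAD7. Its FPKM was 6.26 and 6.0 in STAU1-KO input, against 24.8 and 20.6 in WT input. The log2 difference was -1.73 (SE 0.13), from 181 and 199 reads in STAU1-KO input and 474 and 450 reads in WT input. In spindle its FPKM was 7.60 and 6.52 in STAU1-KO libraries, against 12.1 and 14.1 in WT libraries, a difference of -0.81 (SE 0.13). The 4 STAU1-KO libraries spanned a narrow range, whereas WT input lay well above WT spindle. ID2-AS1, a gene on the opposite strand that overlaps ID2, is not in the expression table. The authors' deposited table gives it a base mean (normalised reads averaged over all libraries) of 8.52 against 241 for ID2, and a log2 fold change of -0.95 (SE 0.819) against -1.89 (SE 0.218) for ID2 in STAU1-KO input against WT input. The kit kept strand, but whether counting used it is not given in the sources used here, so reads of the pair may be mixed.

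ID3 (ENSG00000117318, chromosome 1) resembled ID1 in input and kept the difference in spindle. Its FPKM was 21.4 and 20.7 in STAU1-KO input, against 30.7 and 28.5 in WT input, a log2 difference of -0.47 (SE 0.16). In spindle its FPKM was 6.61 and 6.40 in STAU1-KO libraries, against 7.43 and 10.8 in WT libraries, a difference of -0.41 (SE 0.16). Neither pair of groups overlapped, but the spindle value was -0.66 without WT spindle replicate 1 and -0.17 without replicate 2. The number of reads was 504 and 558 in STAU1-KO input against 477 and 507 in WT input, and 134 and 92 in STAU1-KO spindle against 94 and 84 in WT spindle.

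**Figure D2:**
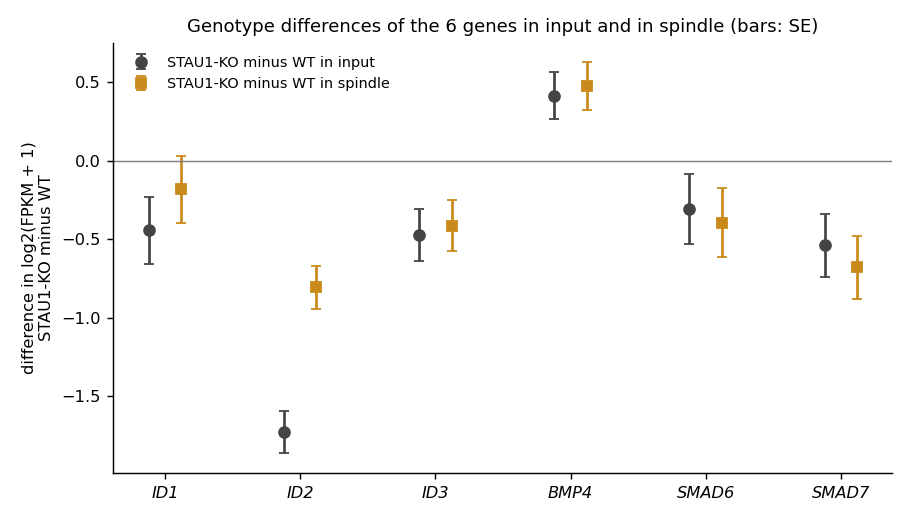
STAU1-KO minus WT difference in log2(FPKM + 1) of the 6 genes in input (circles) and in spindle (squares); bars are the SE from the limma model of 8 libraries. BMP4 alone lies above 0, at 0.41 in input and 0.48 in spindle, and ID2 lies lowest, at -1.73 in input and -0.81 in spindle.

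In spindle, 3 of the 6 genes (ID2, ID3 and SMAD7) had their 2 STAU1-KO values under both WT values, BMP4 had them above, and ID1 and SMAD6 overlapped. Among all tested genes, 25.5% had both STAU1-KO spindle libraries below and 31.8% had both above. By limma, 5.52% of genes were lower and 10.6% were higher in STAU1-KO spindle, and of the 6 genes ID2 was called lower and none higher. As in input, nothing is read from these counts.

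Because FPKM is per length, levels can be set beside each other. The summed FPKM of ID1, ID2 and ID3 was 149 and 145 in STAU1-KO input, against 215 and 217 in WT input. ID1 made up 81.4% and 81.6% of that sum in STAU1-KO input, against 74.1% and 77.4% in WT input. The ID2 share was 4.20% and 4.14% in STAU1-KO input, against 11.6% and 9.5% in WT input, and the ID3 share stayed between 13.1% and 14.4% in all 4 input libraries. In spindle the sum was 83.6 and 93.2 in STAU1-KO libraries, against 88.9 and 128 in WT libraries, and overlapped.

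The order of the 6 genes by mean FPKM differed between the groups. In STAU1-KO input it was ID1 (120 ± 2.03, SD, n = 2), BMP4 (21.1 ± 0.694), ID3 (21.0 ± 0.517), ID2 (6.13 ± 0.181), SMAD6 (0.550 ± 0.0705) and SMAD7 (0.336 ± 0.00839), with BMP4 and ID3 overlapping. In WT input it was ID1 (163 ± 6.09), ID3 (29.6 ± 1.53), ID2 (22.7 ± 2.98), BMP4 (15.7 ± 2.89), SMAD7 (0.960 ± 0.384) and SMAD6 (0.916 ± 0.0867), with SMAD7 and SMAD6 overlapping. BMP4 thus ranked above ID2 and level with ID3 in STAU1-KO input, and below both in WT input. In STAU1-KO spindle the order was ID1 (74.8 ± 7.65), BMP4 (14.5 ± 0.0627), ID2 (7.06 ± 0.763), ID3 (6.50 ± 0.150), SMAD6 (0.979 ± 0.255) and SMAD7 (0.303 ± 0.0462), with ID2 and ID3 overlapping. In WT spindle it was ID1 (86.5 ± 24.2), ID2 (13.1 ± 1.38), BMP4 (10.2 ± 1.41), ID3 (9.12 ± 2.39), SMAD6 (1.64 ± 0.704) and SMAD7 (1.08 ± 0.0631), with BMP4 and ID3 overlapping.

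The spindle preparation held less ID3 relative to other genes than input did, in both genotypes and under every scaling tried. In STAU1-KO cells its FPKM was 6.61 and 6.40 in spindle, against 21.4 and 20.7 in input, a log2 difference of -1.55 (SE 0.16, limma adjusted p = 0.000818). In WT cells it was 7.43 and 10.8 in spindle, against 30.7 and 28.5 in input, a difference of -1.61 (SE 0.16, adjusted p = 0.000414). Spindle libraries thus stood at 30.9% of input in both genotypes. When library values were rescaled to equal sums over coding genes, the differences were -0.91 in STAU1-KO and -0.68 in WT cells, both still called. All 4 spindle libraries lay below all 4 input libraries.

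How spindle compares with input depended on the scaling. With the authors' scaling, the median log2 difference of all tested genes was -0.02 in STAU1-KO and 0 in WT cells. Rescaling to equal coding sums moved it to 0.51 in STAU1-KO and 0.75 in WT cells, and rescaling to equal upper quartiles moved it to 0.19 in STAU1-KO and 0.32 in WT cells. With the authors' scaling, limma called 22.1% of genes higher and 27.1% lower in STAU1-KO spindle than in STAU1-KO input, and 27.6% higher and 32.7% lower in WT spindle than in WT input. Equal coding sums turned this to 6910 higher and 1795 lower in STAU1-KO cells, and 9124 higher and 2147 lower in WT cells. Equal upper quartiles gave 5175 higher and 3374 lower in STAU1-KO cells, and 6721 higher and 4030 lower in WT cells. Of the 6 genes, ID1, ID3 and BMP4 were called lower in spindle in both genotypes. ID2, SMAD6 and SMAD7 are described below with no p.

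ID1 was lower in spindle than in input in STAU1-KO cells, by limma, with a log2 difference of -0.68 (SE 0.21, adjusted p = 0.0398), and in WT cells, with -0.94 (SE 0.21, adjusted p = 0.00997). Spindle held 62.4% of the input mean in STAU1-KO cells and 52.9% in WT cells. With equal coding sums the difference itself was 0.02 in STAU1-KO and 0.05 in WT cells, which is -0.49 in STAU1-KO and -0.70 in WT cells relative to the median of all genes in those fits. The STAU1-KO call was lost on leaving out either library of STAU1-KO input, WT input or STAU1-KO spindle (adjusted p 0.0728 to 0.190) and with equal upper quartiles (adjusted p = 0.112). The WT call was lost without WT input replicate 2 (adjusted p = 0.0560) and with the 2 groups fitted alone (adjusted p = 0.0743).

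BMP4 had a like pattern, with a log2 difference of -0.51 (SE 0.15, limma adjusted p = 0.0317) between STAU1-KO spindle and STAU1-KO input, and of -0.57 (SE 0.15, adjusted p = 0.0169) between WT spindle and WT input. Spindle stood at 68.7% of the input mean in STAU1-KO cells and at 64.8% in WT cells. Neither call held with equal upper quartiles (adjusted p = 0.257 in STAU1-KO and 0.362 in WT cells). With equal coding sums the differences were 0.16 in STAU1-KO and 0.36 in WT cells, or -0.35 and -0.40 relative to the median of all genes. The STAU1-KO call was lost without any 1 of the 4 STAU1-KO libraries (adjusted p 0.109 to 0.142), and the WT call without WT input replicate 1 (adjusted p = 0.0905) and with the 2 groups fitted alone (adjusted p = 0.0893).

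The ID2 differences between spindle and input had opposite signs in the 2 genotypes with the authors' scaling. In STAU1-KO cells its FPKM was 7.60 and 6.52 in spindle, against 6.26 and 6.0 in input, so both spindle libraries were above both input libraries. That difference was 0.17 (SE 0.13). It was 0.79 with equal coding sums (0.28 relative to the median of all genes) and 0.42 with equal upper quartiles. Of all tested genes, 40.2% had both STAU1-KO spindle libraries above both STAU1-KO input libraries. In WT cells the FPKM of ID2 was 12.1 and 14.1 in spindle, against 24.8 and 20.6 in input. Both WT spindle libraries were below both WT input libraries, as in 40.0% of all tested genes. There the difference was -0.75 (SE 0.13). Equal coding sums turned the WT difference to 0.20, which is -0.56 relative to the median of all genes. The differences of both genotypes are given with no p, because the input levels are part of what chose the gene. Whether the 2 changes differ was not tested, for the same reason. That limit holds for ID1, ID3 and BMP4 too, so their p-values above are descriptive.

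Every gene in the expression table has a mean FPKM of at least 1.00 in its highest group. For SMAD6 (1.64) and SMAD7 (1.08) only the WT spindle mean reached that, so both are listed through the group where they were highest. SMAD6 passed the filter on low values only through spindle libraries, and SMAD7 only through WT libraries. Their differences between spindle and input, with the authors' scaling, are therefore given with no p. Those of SMAD6 were 0.35 (SE 0.22) in STAU1-KO cells and 0.43 (SE 0.22) in WT cells. The spindle mean of SMAD6 was 178% of the input mean in both genotypes. Its WT difference turned on the WT spindle libraries, at 0.16 without replicate 1 and 0.71 without replicate 2. SMAD7 differed by -0.04 (SE 0.20) in STAU1-KO cells and by 0.10 (SE 0.20) in WT cells. It stood at 90.2% of input in STAU1-KO and 113% in WT cells. At 8 to 45 reads a library, a lack of difference cannot be read from the SMAD7 values.

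**Figure D3:**
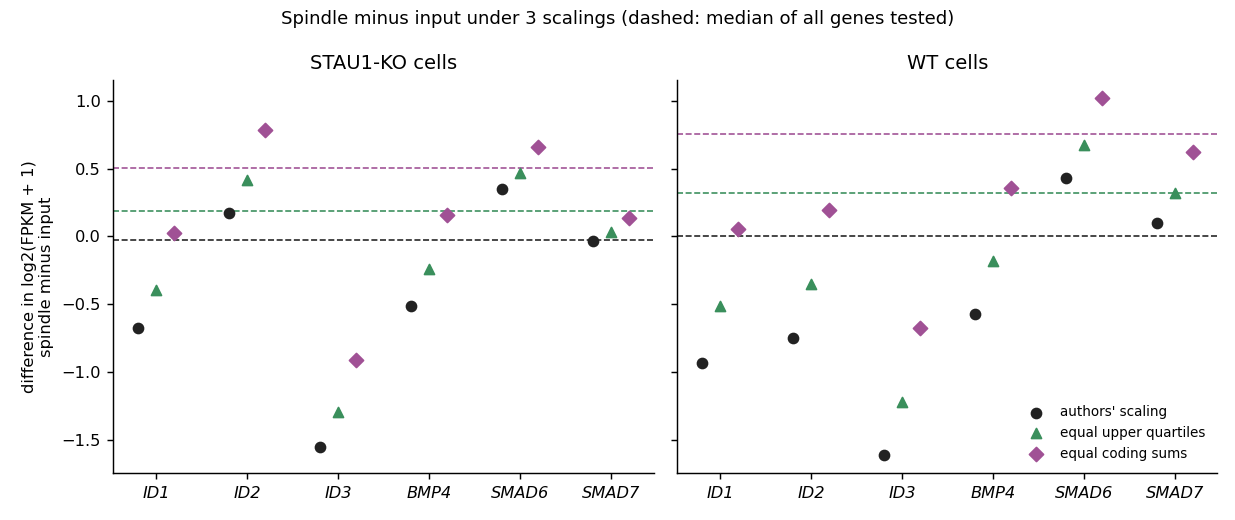
Spindle minus input difference in log2(FPKM + 1) of the 6 genes in STAU1-KO (left) and WT cells (right) under 3 scalings; dashed lines are the median of all tested genes in the same fit. ID3 lies below 0 and below the median in all 6 cases, while ID1 and BMP4 cross 0 with equal coding sums and stay below the median.

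The other genes of the pathway were read from 8 lists of 122 genes (ligands, receptors, SMADs, extracellular modulators, SMAD regulators, other targets, partners of the ID proteins and the TGF-beta branch). Of these, 71 are in the expression table and 70 were tested. The lists too were chosen with earlier results of these data known. Their p-values and shares, here and below, are therefore not independent of that choice and describe the listed genes only. In STAU1-KO input against WT input, none of the 70 was called by limma or by voom on reads. At an unadjusted p under 0.05, 15 passed with limma (21.4%, against 8.84% of all tested genes) and 17 with voom (24.3%, against 11.0%). Their median log2 difference was -0.03, against 0 for all genes. Of the 70 genes, 20 (28.6%, against 26.4% of all genes) had both STAU1-KO input libraries above both WT input libraries. Both lay below in 28 (40.0%, against 27.8%). The authors' deposited DESeq2 values do call USP15 lower in STAU1-KO input (log2 fold change -0.57, SE 0.155, adjusted p = 0.0255). They also call RUNX2 lower, a listed target outside the expression table (-3.56, SE 1.03, adjusted p = 0.0467).

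In STAU1-KO spindle against WT spindle, 2 of the 70 were called higher (2.86%, against 10.6% of all genes) and 11 lower (15.7%, against 5.52%), with a median of -0.24 against 0.04 for all genes. The 13 calls fell to none when either STAU1-KO spindle library was left out or when the 2 groups were fitted alone, and were 39 without WT spindle replicate 1 and 28 without replicate 2. With equal coding sums the median of all genes was -0.13, and 9 of the 11 lower genes and neither of the 2 higher ones were called under all 3 scalings. All 13 kept their direction under the 3 scalings. Over all genes, 1828 were higher and 950 lower with the authors' scaling, 1137 and 1831 with equal coding sums, and 1567 and 1632 with equal upper quartiles.

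**Figure D4:**
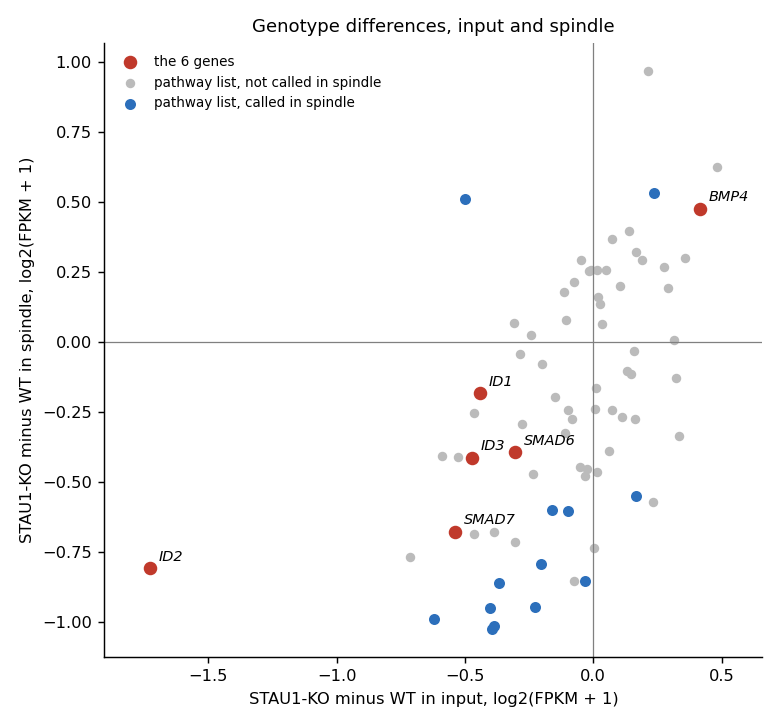
STAU1-KO minus WT difference in log2(FPKM + 1) in spindle (vertical axis) against that in input (horizontal axis) for the 6 genes and 70 genes of the pathway lists; blue points were called in spindle by limma. ID2 lies farthest to the left at -1.73, and 11 of the 13 blue points lie below 0 on the vertical axis.

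Of 13 other ligand genes in the list, 3 are in the expression table. Among all tested genes, 5.52% were called lower and 10.6% higher in STAU1-KO spindle. BMP7, a ligand of the same receptors, fell in STAU1-KO spindle, with an FPKM of 1.36 and 1.5 there against 2.54 and 2.82 in WT spindle (log2 difference -0.60, SE 0.11, limma adjusted p = 0.0227). Its FPKM in input was 2.90 and 2.54 in STAU1-KO cells, against 2.92 and 3.39 in WT cells. BMP8B fell by 0.55 (SE 0.12, adjusted p = 0.0337; 0.0552 with equal coding sums) in STAU1-KO spindle, but its sequence is close to that of BMP8A, and reads of the pair may have been shared. BMP8A had a spindle difference of -0.33 (SE 0.20, adjusted p = 0.289). BMP4, the most abundant of the ligands, was thus higher in both STAU1-KO preparations, while the differences of the other 3 in spindle were negative.

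The receptors and the SMADs that carry the signal showed no called genotype difference. Limma called 0.11% of all genes lower and 0.0813% higher in STAU1-KO input, and 5.52% lower and 10.6% higher in STAU1-KO spindle. Nothing is read from a lack of calls among so few genes. There were 6 receptor genes tested, and in input their differences between STAU1-KO and WT cells ranged from -0.29 (RGMB, a co-receptor) to 0.11 (ACVR1, a type I receptor). BMPR1A, a type I receptor, had an FPKM of 5.12 and 5.25 in STAU1-KO input, against 5.03 and 5.17 in WT input. BMPR2, the BMP type II receptor, had 1.58 and 1.63 in STAU1-KO input, against 1.53 and 1.42 in WT input. The type II receptors ACVR2A and ACVR2B differed by 0.07 and 0.01. SMAD1 and SMAD5, the receptor-activated SMADs, differed by -0.11 (SE 0.12) and 0.05 (SE 0.16) in input and by 0.18 (SE 0.12) and 0.26 (SE 0.16) in spindle. SMAD4, their common partner, differed by 0.04 (SE 0.24) in input and 0.07 (SE 0.24) in spindle. SMAD9 is not in the expression table.

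Between spindle and input, these signalling genes split. ACVR1 rose in spindle, by 0.73 (SE 0.10, limma adjusted p = 0.00181) in STAU1-KO and 0.63 (SE 0.10, adjusted p = 0.00209) in WT cells, with an FPKM of 5.91 and 5.67 in STAU1-KO spindle against 3.14 and 3.05 in STAU1-KO input. BMPR1A fell by 0.57 (adjusted p = 0.00419) in STAU1-KO and by 0.71 (adjusted p = 0.00122) in WT cells. SMAD1 fell by 0.39 (adjusted p = 0.0428) in STAU1-KO and by 0.68 (adjusted p = 0.00434) in WT cells, and SMAD5 fell by 0.58 (adjusted p = 0.0253) in STAU1-KO and by 0.78 (adjusted p = 0.00641) in WT cells. ACVR1 was called higher under all 3 scalings in both genotypes, whereas in WT cells BMPR1A, SMAD1 and SMAD5 turned to 0.08, 0.09 and 0.12 with equal coding sums, still below the median of all genes. In STAU1-KO cells with equal coding sums SMAD1 turned to 0.15 and SMAD5 to 0.06.

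Of 8 extracellular modulators tested, 1 fell in STAU1-KO spindle (5.52% of all genes fell). This was NBL1, a secreted BMP antagonist, with an FPKM of 0.768 and 0.794 in STAU1-KO spindle, against 1.85 and 2.67 in WT spindle (log2 difference -0.86, SE 0.15, limma adjusted p = 0.0177). In input NBL1 had an FPKM of 8.86 and 7.61 in STAU1-KO cells, against 10.3 and 11.4 in WT cells. Relative to input, NBL1 in spindle differed by -2.37 in STAU1-KO and -1.88 in WT cells (limma adjusted p = 0.000259 and 0.000177), called under all 3 scalings. TWSG1, which binds BMP ligands, fell by 1.48 in STAU1-KO and by 1.74 in WT spindle relative to input (adjusted p = 0.000588 and 0.000186). FSTL1, a secreted follistatin-like protein, fell by 0.83 in STAU1-KO and by 0.93 in WT spindle, but not with equal coding sums, where the adjusted p was 0.178 in STAU1-KO and 0.279 in WT cells.

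Of 19 regulators of SMADs tested, 2 rose and 2 fell in STAU1-KO spindle against WT spindle, next to 10.6% and 5.52% of all genes. HIPK2, a kinase that binds SMAD corepressors, had an FPKM of 4.82 and 4.88 in STAU1-KO spindle, against 9.34 and 9.84 in WT spindle (log2 difference -0.85, SE 0.08, limma adjusted p = 0.00567), and of 5.33 and 5.32 in STAU1-KO input against 5.58 and 5.36 in WT input. TGIF2, a corepressor of SMADs, fell by 0.79 (SE 0.11, adjusted p = 0.0107). TOB1, which can restrain BMP-SMAD transcription, rose by 0.53 (SE 0.12, adjusted p = 0.0323). USP15, a deubiquitinase that acts on SMADs, rose by 0.51 (SE 0.09, adjusted p = 0.0174) in STAU1-KO spindle, with an FPKM of 10.3 and 10.2 against 7.09 and 6.69 in WT spindle, but had 5.98 and 6.36 in STAU1-KO input against 8.88 and 9.39 in WT input. Neither TOB1 nor USP15 was called with equal coding sums. Between spindle and input, the corepressor SKI rose by 1.36 in STAU1-KO and 1.80 in WT cells, and RNF11, a RING finger protein that binds SMURF ligases, fell by 1.87 in STAU1-KO and by 1.64 in WT cells, all called under the 3 scalings.

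Of 10 other BMP targets tested, 3 fell and none rose in STAU1-KO spindle against WT spindle, where 5.52% of all genes fell and 10.6% rose. GATA2, a zinc finger factor, had an FPKM of 2.15 and 1.79 in STAU1-KO spindle, against 4.43 and 5.61 in WT spindle (log2 difference -1.01, SE 0.13, limma adjusted p = 0.00923). SNAI1, a repressor of epithelial genes, fell by 1.02 (SE 0.18, adjusted p = 0.0191), and the T-box gene TBX3 fell by 0.95 (SE 0.11, adjusted p = 0.00742). In input the same 3 genes differed by -0.39, -0.39 and -0.40 with none called, next to -0.44 for ID1 and -0.47 for ID3. MSX1, a homeobox target, had an FPKM of 50.8 and 48.8 in STAU1-KO input against 42.2 and 42.2 in WT input, and of 14.3 and 15.0 in STAU1-KO spindle against 19.1 and 25.8 in WT spindle (spindle adjusted p = 0.0510). Over the 10 targets the median difference was -0.27 in input and -0.52 in spindle.

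ID proteins act through other helix-loop-helix proteins, of which 7 were tested. Among all tested genes, 5.52% fell and 10.6% rose in STAU1-KO spindle. HES4 and HES6, members of the HES family, fell in STAU1-KO spindle by 0.99 (SE 0.17, limma adjusted p = 0.0187) and 0.95 (SE 0.16, adjusted p = 0.0157). HES4 had an FPKM of 17.7 and 20.2 in STAU1-KO input, against 29 and 30.2 in WT input, where the difference of -0.62 was not called (adjusted p = 0.355). The E protein genes TCF3 and TCF12, whose products are direct partners of ID proteins, were not called in either genotype comparison. TCF3 had an FPKM of 22.3 and 21.4 in STAU1-KO input, against 24.6 and 21.7 in WT input, and TCF12 had 11.6 and 11.4 in STAU1-KO input, against 10.6 and 9.66 in WT input. In spindle TCF3 had 10.5 and 10.2 in STAU1-KO cells, against 14.9 and 25.5 in WT cells (adjusted p = 0.0541).

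Of 15 genes of the TGF-beta branch tested, SMAD3, its receptor-activated SMAD, fell in STAU1-KO spindle, with an FPKM of 14.5 and 14.4 against 25.7 and 19.6 in WT spindle (log2 difference -0.60, SE 0.14, limma adjusted p = 0.0361). With equal coding sums that adjusted p was 0.0759. No other gene of the branch was called there, where 5.52% of all genes fell and 10.6% rose with the authors' scaling. In input SMAD3 had an FPKM of 11.0 and 9.99 in STAU1-KO cells, against 11.4 and 11.2 in WT cells. CDKN1A, a cell cycle inhibitor induced by the branch and by p53, had 231 and 228 in STAU1-KO input, against 220 and 236 in WT input, and the groups overlapped. TGFBR1, its type I receptor, had an FPKM of 9.92 and 10.1 in STAU1-KO input, against 7.91 and 7.31 in WT input, a difference of 0.36 that was not called (adjusted p = 0.359). Between spindle and input, LTBP4, which binds latent TGF-beta, rose by 1.00 in STAU1-KO and 1.67 in WT cells, called under all 3 scalings. TGFBR1 fell by 1.21 in STAU1-KO and by 1.15 in WT cells, and in WT cells its difference was -0.33 and not called with equal coding sums.

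Over all 70 pathway genes, 10 rose (14.3%, against 22.1% of all genes) and 30 fell (42.9%, against 27.1%) in STAU1-KO spindle against STAU1-KO input, with a median of -0.39, against -0.02 for all genes. In WT cells 15 rose (21.4%, against 27.6% of all genes) and 27 fell (38.6%, against 32.7%), with a median of -0.25 against 0. All 10 and all 15 that rose were also called higher with equal coding sums and with equal upper quartiles. Of those that fell, 10 of 30 in STAU1-KO and 3 of 27 in WT cells were called lower under all 3 scalings, but all lay below the median of all genes each time. ID3, ID1 and BMP4 are among the 6 genes set beside these lists and are not counted in them.

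Likeness of pattern over the 8 libraries was measured as the root mean square difference of log2(FPKM + 1) profiles, each centred on its own mean, among 11170 coding genes with a mean FPKM of at least 1. TOMM5 (0.0943), MFN2 (0.103) and HOXA10 (0.104) came nearest to ID1. FBXO6 (0.0851), AIF1L (0.0882) and SLC25A33 (0.0968) came nearest to ID3, and SMARCD1 (0.0823), FRMD6 (0.0829) and ENPP1 (0.0910) to BMP4. FGGY (0.0755), INO80C (0.0972) and PLCXD1 (0.104) came nearest to SMAD6, and SLC7A1 (0.104), GPR39 (0.110) and BLOC1S3 (0.113) to SMAD7. ID2 had no neighbour as close, the nearest being SYK (0.199), GALNT3 (0.213) and DSC3 (0.220).

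The 3 neighbours of ID2 were low in every STAU1-KO library. SYK, a tyrosine kinase, had an FPKM of 0.0439 and 0.0511 in STAU1-KO input, against 2.64 and 2.87 in WT input, and of 0.0340 and 0.0480 in STAU1-KO spindle, against 1.5 and 1.11 in WT spindle. GALNT3, a glycosyltransferase, had 0.293 and 0.497 in STAU1-KO input, against 3.99 and 4.35 in WT input. DSC3, a desmosomal cadherin, had 0.821 and 0.849 in STAU1-KO input, against 3.39 and 3.97 in WT input. These genes were picked for their likeness, and the values describe that likeness only.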

How the data were processed

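RNA of 8 libraries was analysed from the tables the authors deposited. Per the submitters' processing notes, FastQC, TopHat, featureCounts, DESeq2 and GRCh37 were used, and versions are not given in the sources used here. The deposited expression table holds FPKM per library, scaled by the authors' size factors, and lengths in nucleotides. Per the file headers, the authors' 3 comparison tables of 63677 genes hold a base mean (a normalised signal), a log2 fold change with its SE, and p-values. Reads were recovered from FPKM and base mean, and 100% of values under 10000 reads were whole within 0.01. They give depth and serve 1 alternative test.

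limma 3.58.1 (R 4.3.3) was fitted to log2(FPKM + 1) of genes with an FPKM of at least 1 in at least 2 libraries (17217 genes), as 1 model of 4 group means with a variance trend, which left 4 residual and gave 2.25 prior degrees of freedom. Tests were two-sided, with Benjamini-Hochberg adjustment over all tested genes and a threshold of 0.05. The script was tested on simulated data. Genes named beside the 6 are STAU1, STAU2, pathway genes called between genotypes, the receptors and SMADs, examples among the 3 of each list with the smallest p between spindle and input, and the 3 nearest neighbours in pattern. The 6 genes and the lists were chosen with earlier results of these data known. Alternatives were pseudocounts of 0.1 and 0.5, no filter, equal coding sums, equal upper quartiles, voom on recovered reads, the replicate block, the 2 groups alone, and each library left out. Promoters are RefSeq's for GRCh38.p14, and gene overlaps are from GENCODE. The authors' tables carry no coordinates.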

Additional observations from a re-analysis of the deposited data

Results flagged for a closer look

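The change of ID2 between spindle and input was flagged because it had opposite signs in the genotypes with the authors' scaling. It was 0.17 (SE 0.13) in STAU1-KO cells and -0.75 (SE 0.13) in WT cells. Both STAU1-KO spindle libraries (FPKM of 7.60 and 6.52) were above both STAU1-KO input libraries (6.26 and 6.0), and both WT spindle libraries (12.1 and 14.1) were below both WT input libraries (24.8 and 20.6). Each separation alone is common, at 40.2% of all tested genes for the first and 40.0% for the second. The spindle-to-input change was 0.92 higher in STAU1-KO than in WT cells on the log2(FPKM + 1) scale. The difference was not tested, and with equal coding sums both changes were above 0, at 0.79 in STAU1-KO and 0.20 in WT cells. Relative to the median of all genes in those fits they were 0.28 in STAU1-KO and -0.56 in WT cells.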

How the results depend on the processing

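Of 384 values of the 6 genes under alternatives, 328 kept their direction and side of the threshold or stayed within replicate spread, 26 moved, 17 lost a call, 5 gained one and 8 turned sign. Also ID1 in STAU1-KO spindle against WT spindle, counted among the 26, turned sign, at 0.10 without WT spindle replicate 2. The 5 gains were of ID2 and SMAD6, for which no p is given above. Between genotypes only the log2 difference was compared. No filter, the replicate block, the 2 groups alone and leaving out a library of another group cannot change it. Such values counted as kept by design, so the 328 overstates how stable the results are. In STAU1-KO input against WT input, 33 genes were called. The count was 8 with equal coding sums, 20 with equal upper quartiles, 10 with the replicate block, 0 with the 2 groups alone, 134 with voom, and 2 to 495 with 1 library left out. Pathway calls there were 0, and 0 to 4 with 1 library left out. In STAU1-KO spindle against WT spindle, 2778 genes were called, 1828 with the replicate block, 0 with the 2 groups alone, and 0 to 6543 with 1 library left out. The 13 pathway calls there were 22 with equal coding sums, 23 with equal upper quartiles, 0 with the 2 groups alone, and 0 to 39 with 1 library left out. Between STAU1-KO spindle and input, 8473 genes were called (4937 to 11099 with 1 library left out), with 40 pathway calls (22 to 53). In WT cells the 42 pathway calls were 22 with the 2 groups alone. Values that turned sign in STAU1-KO cells were ID1 at 0.0227, BMP4 at 0.16 and SMAD7 at 0.14 with equal coding sums, and SMAD7 at 0.0322 with equal upper quartiles. In WT cells they were ID1 at 0.0549, ID2 at 0.20 and BMP4 at 0.36 with equal coding sums, and SMAD7 at -0.10 without WT input replicate 1 (-0.10 to 0.30 over libraries left out). The cause was not tested. The replicate numbers did not pair the libraries, since same-numbered libraries deviated with r of -0.04 to 0.02 across genes in the 4 comparisons. With 1 library left out, the lone library is assumed to vary like the others. Depth limits SMAD6 and SMAD7 most, at 8 to 55 reads per library.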
